A study of Mus musculus with 38 samples.

Results

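Cytochrome P450 enzymes of the Cyp2, Cyp3 and Cyp4 families were followed across wild-type and nuclear-lamina mutant mouse stem cells by the LAP2B, LMNB1 and IGG signal over their genes. Members were taken as the protein-coding genes whose symbol is Cyp2, Cyp3 or Cyp4, a subfamily letter and a number, which gave 73 of the 78202 genes in the tables (49 Cyp2, 7 Cyp3 and 17 Cyp4 genes). P450 genes whose symbol ends in a letter, such as Cyp3a41a or Cyp4a12a, fall outside this rule and are given below as neighbours.

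The cells were mouse embryonic stem cells in the naive state (mESCs) and the epiblast-like cells (EpiLCs) made from them, the naive and the primed state of the early embryo in culture, collected after 48 hours in their medium. CUT&RUN, in which an antibody-tethered nuclease releases the DNA next to its target, was run on 200000 cells per replicate. LAP2B, an inner nuclear membrane protein, was mapped at both stages in wild-type (WT) cells, in cells lacking the lamin B receptor (LBRKO), in cells lacking all lamins (TKO, triple knockout) and in cells lacking the lamins and the receptor (QKO, quadruple knockout). LMNB1, a lamin of the nuclear lamina, and IGG, an unspecific antibody that gives the background, were mapped in WT cells at both stages. Each group had 3 libraries, so 24 LAP2B, 6 LMNB1 and 6 IGG libraries were used, and 2 further samples, of H3K9me3, were left out (not analysed here). According to the methods, LBRKO was made in the WT line, QKO was a single clone made from TKO, and TKO is a line separate from WT with an extra chromosome 8, while part of the WT culture had lost the Y chromosome or gained chromosomes 6 and 8. The spread between libraries is therefore not the spread between clones, and effects of genotype and of line cannot be told apart. In EpiLCs the study did not read lamina contact from LAP2B, because its signal in WT EpiLCs lay both inside and outside lamina-associated regions when set against LMNB1.

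P450 enzymes of these families are membrane-bound heme proteins that oxidise drugs, steroids, fatty acids and eicosanoids, mostly in liver, kidney, lung and gut, and most are silent in stem cells. They expanded by tandem duplication, so that close relatives stand side by side in arrays. Tissue-restricted gene arrays in AT-rich DNA often lie against the nuclear lamina, where the membrane protein LBR and the lamins hold chromatin. The signal measured here is contact of the gene body with LAP2B or LMNB1, not expression.

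The 73 genes lie on 8 chromosomes in GRCm39. Genes less than 1 Mb apart were joined into clusters, which gave 7 clusters with 65 genes, and 8 genes stood alone. The Cyp3a cluster (6 members, chr5:145282089-146050097) encodes the main drug- and steroid-oxidising enzymes of liver and gut. The Cyp2j cluster (8 members, chr4:95915771-96552451) encodes arachidonic acid epoxygenases. The Cyp4a/Cyp4b/Cyp4x cluster (7 members, chr4:114963434-115504999) encodes fatty acid hydroxylases. The Cyp2c cluster (14 members, chr19:38995462-40175777) encodes epoxygenases and drug-oxidising enzymes. The mixed Cyp2a/Cyp2b/Cyp2f/Cyp2g/Cyp2s/Cyp2t cluster (13 members, chr7:25501895-26858093) holds enzymes of liver, lung and olfactory mucosa. The Cyp2d cluster (9 members, chr15:82254727-82678509) encodes alkaloid- and drug-oxidising enzymes. The Cyp4f cluster (8 members, chr17:32671694-33166434) encodes hydroxylases of leukotrienes and very long fatty acids. Cyp2u1 (chromosome 3), Cyp3a13 and Cyp2w1 (chromosome 5), Cyp2r1 and Cyp2e1 (chromosome 7), Cyp4v3 and Cyp4f18 (chromosome 8) and Cyp2c23 (chromosome 19) are the genes that stood alone.

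The promoters show how unlike these genes are in base composition. Windows of 300 bases, from 250 before to 50 after the annotated 5′ end of the gene (GENCODE M39, GRCm39), are printed 5′ to 3′ for the members with the largest fall in a cluster that fell (Cyp3a16), for a member of the cluster that fell most in LBRKO (Cyp2j6), for a single gene with a CG-rich promoter that fell too (Cyp2r1), and for members that rose (Cyp4f39 and Cyp2w1). Capitals mark each CG dinucleotide. The windows are Cyp3a16 at chr5:145406484-145406783 (minus strand), Cyp2j6 at chr4:96441886-96442185 (minus strand), Cyp2r1 at chr7:114162172-114162471 (minus strand), Cyp4f39 at chr17:32671444-32671743 (plus strand) and Cyp2w1 at chr5:139338122-139338421 (plus strand).
Cyp3a16: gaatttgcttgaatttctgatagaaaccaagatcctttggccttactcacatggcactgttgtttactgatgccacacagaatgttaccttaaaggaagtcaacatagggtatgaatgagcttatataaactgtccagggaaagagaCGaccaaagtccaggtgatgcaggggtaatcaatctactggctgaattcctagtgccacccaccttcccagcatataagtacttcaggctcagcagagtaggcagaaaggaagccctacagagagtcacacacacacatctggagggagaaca
Cyp2j6: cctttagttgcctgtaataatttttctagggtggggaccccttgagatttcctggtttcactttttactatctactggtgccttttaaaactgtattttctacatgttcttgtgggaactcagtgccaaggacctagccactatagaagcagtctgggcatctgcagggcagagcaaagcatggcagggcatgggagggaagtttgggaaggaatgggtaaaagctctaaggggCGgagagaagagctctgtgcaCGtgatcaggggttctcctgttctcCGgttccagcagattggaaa
Cyp2r1: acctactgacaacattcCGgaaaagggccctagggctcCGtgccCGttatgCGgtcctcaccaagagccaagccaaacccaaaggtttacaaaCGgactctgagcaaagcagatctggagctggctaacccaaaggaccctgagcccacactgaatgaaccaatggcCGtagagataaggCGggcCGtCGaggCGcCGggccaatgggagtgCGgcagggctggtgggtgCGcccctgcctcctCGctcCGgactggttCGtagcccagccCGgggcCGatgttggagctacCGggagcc
Cyp4f39: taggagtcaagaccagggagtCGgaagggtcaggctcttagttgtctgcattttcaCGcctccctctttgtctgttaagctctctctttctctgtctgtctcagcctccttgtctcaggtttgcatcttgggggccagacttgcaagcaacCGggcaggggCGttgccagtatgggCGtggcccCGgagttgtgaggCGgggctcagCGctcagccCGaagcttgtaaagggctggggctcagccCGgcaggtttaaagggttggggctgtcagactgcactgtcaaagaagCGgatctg
Cyp2w1: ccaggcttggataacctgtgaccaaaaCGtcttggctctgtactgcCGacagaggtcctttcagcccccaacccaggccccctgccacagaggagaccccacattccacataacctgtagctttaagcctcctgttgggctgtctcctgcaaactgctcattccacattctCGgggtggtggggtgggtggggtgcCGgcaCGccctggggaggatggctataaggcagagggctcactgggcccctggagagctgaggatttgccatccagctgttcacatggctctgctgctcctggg

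Cyp3a16 has 1 CG and Cyp2j6 has 3 in this window, against 11 in Cyp4f39, 5 in Cyp2w1 and 19 in Cyp2r1. Cyp4f39 is the highest of its cluster, whose median of 2 lies below the 3 of Cyp2j and of Cyp4a/Cyp4b/Cyp4x, clusters that fell. It lies above the median of 1 in Cyp3a and in Cyp2c, which fell too. Over the 73 members the median was 2 CG dinucleotides (range 0 to 19), against 8 over the 21683 protein-coding promoters read in the same way. A ratio of observed to expected CG of at least 0.6 was found in 3 members (Cyp2u1, Cyp4v3 and Cyp2r1), or 4.11%, against 36.6% of all these promoters. The letters TATAAA, searched on both strands, occurred in 29 of 73 members (39.7%) against 13.7% of all promoters, and by cluster in 9 of 14 (Cyp2c), 6 of 9 (Cyp2d), 3 of 6 (Cyp3a), 3 of 7 (Cyp4a/Cyp4b/Cyp4x), 5 of 13 (mixed), 3 of 8 (Cyp2j) and 0 of 8 (Cyp4f). The median GC content of the gene body was 42.4% over the members and 45.2% over all protein-coding genes. It was 38.0% in the Cyp2c cluster, 38.5% in Cyp2j, 40.7% in Cyp3a, 42.6% in Cyp4a/Cyp4b/Cyp4x, 44.9% in the mixed cluster, 45.6% in Cyp4f and 49.7% in Cyp2d.

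A gene's value is the spike-in scaled coverage summed over the 1 kb bins it touches, 5 to 75 bins per member with a median of 25, and it grows with length. Values are given on the relative scale, in which each library was divided by its own median gene so that a value of 1 is the median gene, unless the spike-in scale (the deposited value) is named. Levels were compared between genes only per bin, as a percentile among the genes tested. Changes are log2 differences of group means (3 libraries each) ± standard error, after adding a pseudocount of 0.1 of the median gene, which understates changes of low genes, and a change was called at a limma adjusted p under 0.05 over all genes tested. Of the 73 members 72 passed the filter on low values, with 70381 genes in all. Cyp2c66, over 74 bins, did not pass and is listed at 0 in all 36 libraries. The reads recovered from the tables came to between 12028659 and 45689196 a library, with 36 to 135 on the median gene, so that low members such as Cyp2d12, at 0.361 to 1.75 median genes over the LAP2B libraries, are less precise. Near-identical neighbours in these arrays can share or lose reads, and how multi-mapping pairs were placed within an array was not tested, so single members of an array are less certain than the array. Cyp4a32 and Cyp4b1 share bins with each other, and Cyp2t4, Cyp4v3 and Cyp4f18 share bins with a protein-coding neighbour.

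In WT cells the clusters split into lamina-rich and lamina-poor ones. In naive mESCs, LMNB1 per bin stood at the 93.1st to 97.5th percentile for the 6 Cyp3a members, at the 73.7th to 90.8th for Cyp4a/Cyp4b/Cyp4x and at the 60.4th to 88.6th for Cyp2j. The Cyp2c members ranged from 52.5 to 76.7 apart from Cyp2c38 at 28.9. At the other end stood Cyp4f, at 10.2 to 23.0, and Cyp2d, at 1.74 to 22.4. The mixed cluster had a median percentile of 39.9, with Cyp2t4 at 16.4 and Cyp2f2 at 19.5 at one edge, Cyp2s1 at 59.9 at the other, and Cyp2b13 and Cyp2b9 at 0.445 and 4.96 within it. Among the single genes, Cyp2r1, the main vitamin D hydroxylase, stood at 88.8 and Cyp4v3 at 77.2, against 30.1 for Cyp2w1 and 23.1 for Cyp2c23. In single LMNB1 libraries the cluster medians were 94.1 to 97.0 in Cyp3a and 12.4 to 15.8 in Cyp4f. Those of Cyp2d (6.98 to 20.4) overlapped Cyp4f, and those of Cyp2j (74.4 to 79.6) overlapped Cyp4a/Cyp4b/Cyp4x (74.5 to 84).

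LAP2B in naive WT cells gave a similar order, with cluster medians of 93.3 for Cyp3a, 79.6 for Cyp4a/Cyp4b/Cyp4x, 68.3 for Cyp2j, 56.8 for Cyp2c, 37.2 for the mixed cluster, 29.5 for Cyp2d and 19.1 for Cyp4f. Neighbouring clusters in this order, such as Cyp2c and Cyp2j, overlapped in their ranges. The IGG background did not give that order, since its medians were 53.6 for Cyp3a, 54.3 for Cyp2d and 47.3 for Cyp4f, but it was low in Cyp2j (26.5) and Cyp2c (21.2), whose bodies are the most AT-rich. Its part in the levels of those clusters was not tested. Cyp2b13 and Cyp2b9 were low with IGG too, at percentiles of 0.358 and 2.86, as they were with LAP2B and LMNB1. Cyp2c38 stood at 3.04 with IGG, against 13.2 with LAP2B and 28.9 with LMNB1. Of the 72 ranked members, 20 fell above the 75th percentile of LMNB1 and 22 at or below the 25th in naive cells, and 25 and 15 in EpiLCs. These numbers depend on the division by length. Ranked by the undivided naive value 39 members were among the highest 25% of genes, and ranked by LMNB1 over IGG 28.

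In naive mutant cells the Cyp3a, Cyp2j, Cyp4a/Cyp4b/Cyp4x and Cyp2c clusters lost LAP2B and Cyp4f gained it, relative to the median gene, while most members of Cyp2d, which is lamina-poor too, were not called. In LBRKO 47 members were called lower and 11 higher of 72, against 27.4% and 28.9% of all genes tested. In TKO 38 were lower and 9 higher, against 27.5% and 21.8%. In QKO 43 were lower and 16 higher, against 42.1% and 33.3%. The median log2 change over the members was -0.81 (LBRKO), -0.46 (TKO) and -0.90 (QKO), while over all genes it was 0.05, -0.10 and -0.21. The share of members called lower in QKO, 43 of 72, is the one nearest to its background. Scaling by the mean gene instead of the median gene changed the TKO split to 28 lower and 19 higher, with a member median of -0.15 beside 0.18 over all genes, and centring each chromosome changed it to 41 lower and 3 higher. The 3 comparisons share the WT libraries.

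**Figure D1:**
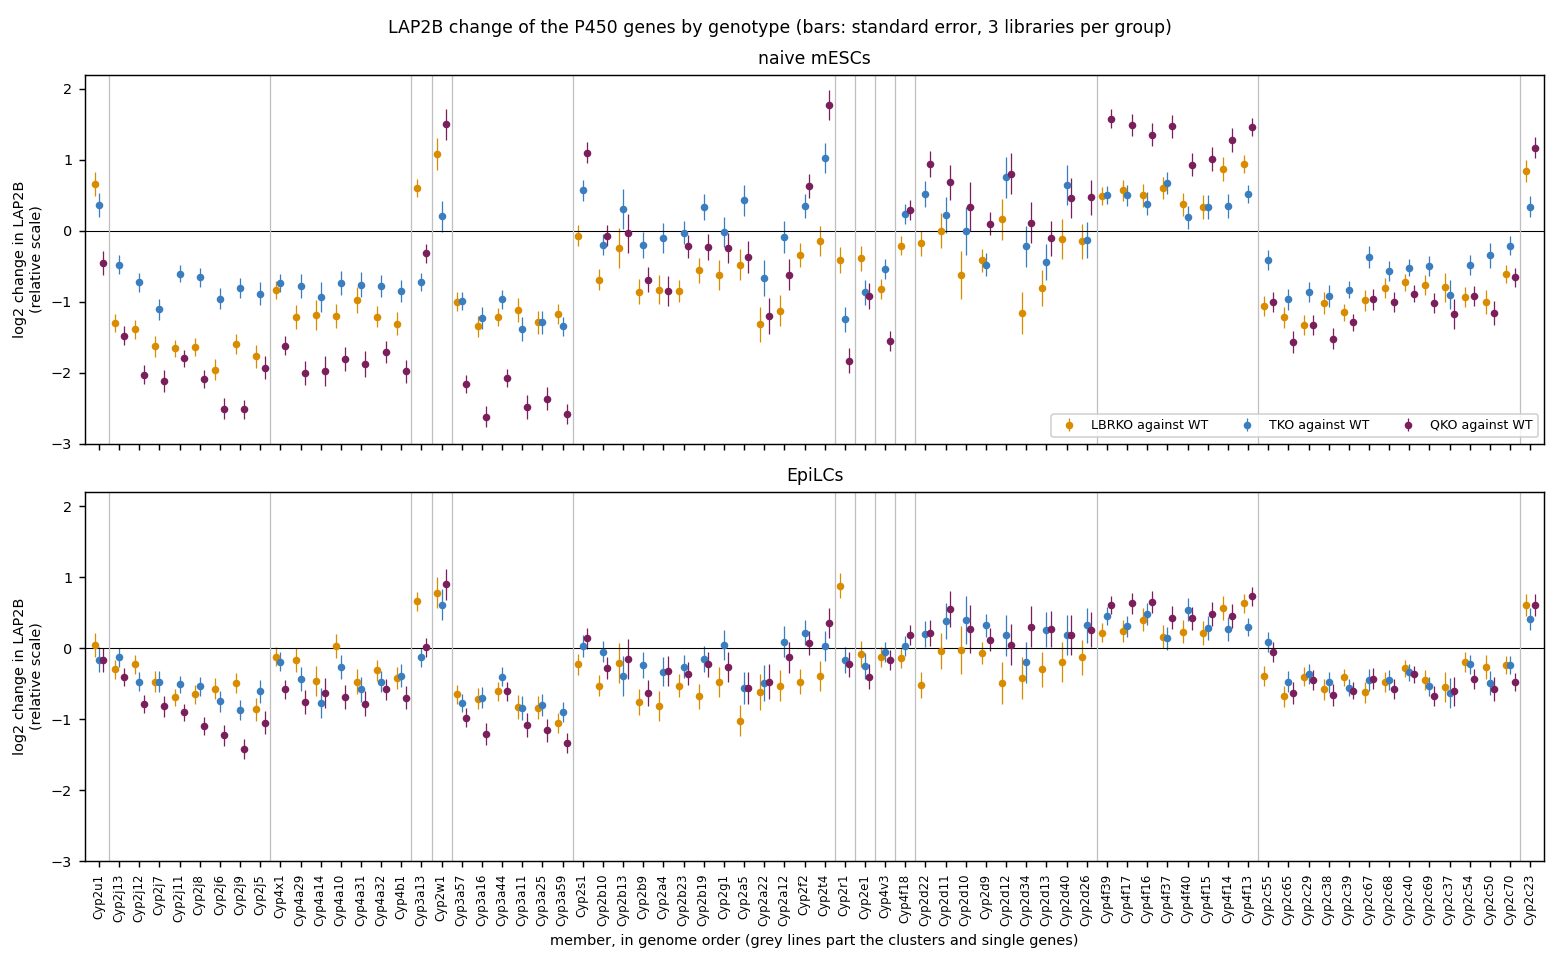
Log2 change of LAP2B (relative scale, vertical axis) for the 72 members tested, in genome order along the horizontal axis, in LBRKO, TKO and QKO against WT (points are fitted differences, bars their standard errors, 3 libraries per group). In naive mESCs (upper panel) the Cyp2j, Cyp4a/Cyp4b/Cyp4x, Cyp3a and Cyp2c blocks lie below 0 and the Cyp4f block above 0 in all 3 genotypes, with changes from -2.62 to 1.77 in QKO. In EpiLCs (lower panel) QKO changes run from -1.42 to 0.90.

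The Cyp3a cluster had the lowest median of the 7 clusters in TKO (-1.26) and QKO (-2.43), and in LBRKO its -1.19 was above that of Cyp2j (-1.64) and next to that of Cyp4a/Cyp4b/Cyp4x (-1.20). All 6 members were called lower in each mutant, by -1.35 to -1.0 in LBRKO, -1.39 to -0.97 in TKO and -2.62 (Cyp3a16) to -2.08 (Cyp3a44) in QKO. Cyp3a16 read 16.3, 23.0 and 17.0 median genes in the WT libraries, 8.62, 5.20 and 8.48 for LBRKO, 8.28, 7.30 and 7.97 for TKO and 2.59, 3.53 and 2.76 for QKO. Every mutant library lay below every WT library, and every QKO library below those of LBRKO and TKO (QKO -2.62 ± 0.15, adjusted p = 1.49e-21). Cyp3a11, the most abundant drug-oxidising member in liver and a target of the pregnane X receptor, went from 11.4, 16.9 and 10.8 in WT to 1.76, 2.93 and 2.07 in QKO (-2.48 ± 0.17, adjusted p = 4.38e-19). Cyp3a59 changed by -2.58 ± 0.14 (adjusted p = 1.58e-22). The direct comparison of LBRKO with TKO, added after the values against WT were seen, called none of the 6 Cyp3a members, with differences from -0.24 to 0.27 and standard errors of 0.13 to 0.17. By the spike-in scale all 6 were higher in LBRKO than in TKO (0.55 to 1.06), as was the median of all genes (0.74).

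The Cyp2j cluster fell in all 3 mutants, and relative to the median gene further in LBRKO than in TKO. All 8 members were called lower, by -1.96 (Cyp2j6) to -1.30 (Cyp2j13) in LBRKO, -1.11 (Cyp2j7) to -0.48 (Cyp2j13) in TKO and -2.52 (Cyp2j9) to -1.48 (Cyp2j13) in QKO. Cyp2j6 read 13.5, 18.5 and 12.7 in WT, 4.24, 3.61 and 3.34 for LBRKO, 7.62, 7.85 and 7.15 for TKO and 1.79, 3.10 and 2.81 for QKO. No library of the 4 groups crossed into the next, so the order was WT, TKO, LBRKO and QKO. Cyp2j9 followed it, with 11.1, 11.0 and 9.60 in WT, 3.91, 3.05 and 3.37 for LBRKO, 6.57, 5.53 and 5.96 for TKO and 1.51, 2.3 and 1.56 for QKO. LBRKO was lower than TKO at all 8 members, by -1.04 (Cyp2j11, adjusted p = 2.41e-10) to -0.53 (Cyp2j7, adjusted p = 0.00292). None of the 8 was called by the same test on the spike-in scale (-0.25 to 0.26).

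The fatty acid hydroxylases of the Cyp4a/Cyp4b/Cyp4x cluster fell as a block. All 7 were called lower in each mutant, by -1.31 to -0.84 in LBRKO, -0.94 to -0.74 in TKO and -2.01 (Cyp4a29) to -1.62 (Cyp4x1) in QKO. Cyp4b1, a lung enzyme, read 10.0, 10.8 and 7.13 in WT, 3.56, 4.07 and 3.34 for LBRKO, 4.43, 4.53 and 6.31 for TKO and 1.92, 2.65 and 2.22 for QKO. Cyp4a10, a fatty acid hydroxylase induced through the receptor PPARα, changed by -1.20 ± 0.17 (LBRKO), -0.74 ± 0.17 (TKO) and -1.81 ± 0.17 (QKO) (adjusted p = 2.97e-08, 2.60e-04 and 5.96e-14). Its relative Cyp4a14 changed by -1.19, -0.94 and -1.98, and Cyp4x1, known from brain, by -0.84, -0.74 and -1.62, all called. QKO was lower than TKO at all 7 members and lower than LBRKO at all 7.

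**Figure D2:**
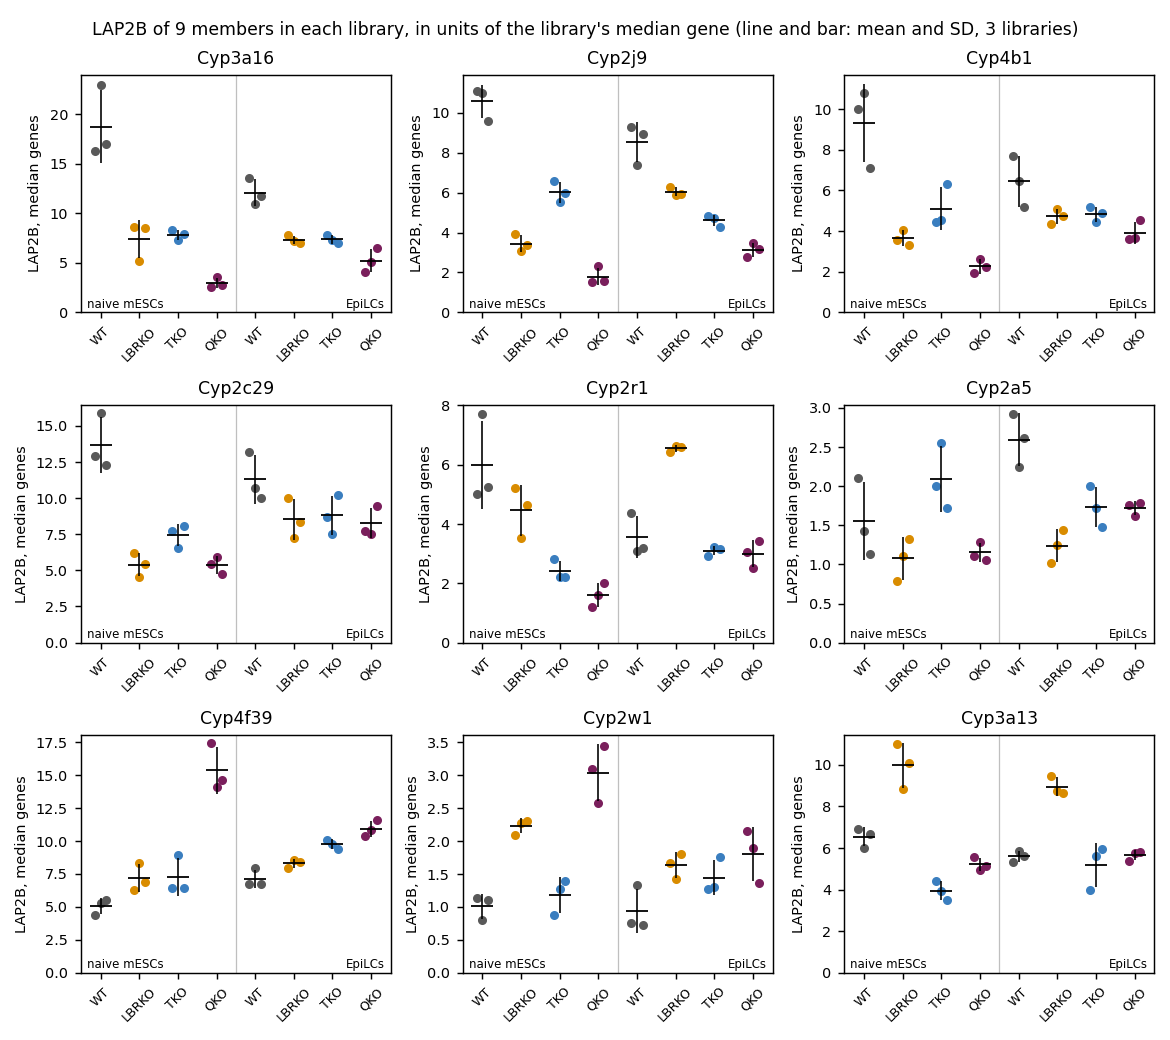
LAP2B of 9 members in every library of the 4 genotypes at both stages (vertical axis, value in units of the library's median gene, starting at 0; points are libraries, line and bar are mean and SD of 3). Cyp3a16 falls from 16.3 to 23.0 in naive WT to 2.59 to 3.53 in QKO and Cyp4f39 goes from 4.42 to 5.54 to 14.1 to 17.4, while Cyp3a13 is highest in LBRKO at both stages.

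The Cyp2c cluster lost less, and relative to the median gene few of its members separated QKO from LBRKO. All 13 tested members were lower in LBRKO (-1.33 to -0.61) and in QKO (-1.57 for Cyp2c65 to -0.66 for Cyp2c70), and 11 of 13 in TKO (-0.97 to -0.21). Cyp2c29, an arachidonic acid epoxygenase of liver, read 12.9, 15.9 and 12.3 in WT, 6.23, 4.57 and 5.42 for LBRKO, 7.76, 6.58 and 8.04 for TKO and 5.47, 5.96 and 4.74 for QKO. The LBRKO and QKO libraries overlap. Cyp2c39 gave -1.15 ± 0.12, -0.83 ± 0.12 and -1.29 ± 0.12 in the same order, all called. QKO against LBRKO was called at 2 of the 13 (Cyp2c38 at -0.50 and Cyp2c65 at -0.36), with a range of -0.50 to 0.05, whereas QKO against TKO was called lower at 12 of 13. Without that division, on the spike-in scale, QKO was lower than LBRKO at all 13 (-1.87 to -1.33), where the median of all genes was -1.35.

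The Cyp4f cluster rose in every mutant on this scale, and in LBRKO alone on the spike-in scale. All 8 members were called higher in QKO, by 0.93 (Cyp4f40) to 1.58 (Cyp4f39), 7 of 8 in LBRKO (0.33 to 0.94) and 5 of 8 in TKO (0.19 to 0.67). Cyp4f39, a hydroxylase of very long fatty acids needed for skin lipids, read 4.42, 5.27 and 5.54 in WT, 6.32, 8.34 and 6.90 for LBRKO, 6.46, 8.95 and 6.40 for TKO and 17.4, 14.1 and 14.6 for QKO. The QKO libraries stood above all others (1.58 ± 0.13, adjusted p = 3.70e-16), and LBRKO and TKO, which overlap each other, above WT. Cyp4f14, a leukotriene hydroxylase, read 2.50, 2.66 and 1.75 in WT, 4.13, 4.98 and 3.70 in LBRKO and 6.26, 5.85 and 4.96 in QKO, changes of 0.87 ± 0.17 and 1.28 ± 0.17. Its TKO change, 0.35 ± 0.17, was not called (adjusted p = 0.0819). Cyp4f13 gave 0.94, 0.52 and 1.46 in LBRKO, TKO and QKO, all called, and Cyp4f37 was the largest TKO rise of the cluster at 0.67. In spike-in units 6 of the 8 were called higher in LBRKO (median 0.72) and none was called in TKO or QKO (medians -0.17 and 0.18), where the median of all genes was -0.64 and -1.23.

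In the Cyp2d cluster few members were called, and their low values are imprecise. In QKO 8 of 9 members lay above 0 (median 0.46), 3 of them called higher and none lower (range -0.11 for Cyp2d13 to 0.94 for Cyp2d22), and LBRKO gave 3 lower and none higher. Cyp2d22 read 2.24, 1.43 and 1.52 in WT, 1.30, 1.54 and 1.65 for LBRKO, 2.04, 2.70 and 2.73 for TKO and 4.01, 2.77 and 3.38 for QKO. The QKO libraries lie above all libraries of the other groups, while LBRKO and TKO overlap WT (QKO 0.94 ± 0.18, adjusted p = 1.11e-05). The spike-in scale turned the direction of the cluster in QKO, with all 9 members below 0 (median -0.63), 4 called lower and none higher, and Cyp2d22 not called (-0.25). Cyp2d34 fell in LBRKO by -1.16 ± 0.29 (adjusted p = 6.65e-04) and Cyp2d26, a liver enzyme at the cluster's far end, gave -0.15, -0.13 and 0.47 in LBRKO, TKO and QKO, none called. Relative to the median gene LBRKO was called lower than QKO at 7 of the 9, with overlapping libraries at Cyp2d11, Cyp2d10, Cyp2d13 and Cyp2d26. On the spike-in scale no member was called lower in LBRKO than in QKO.

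The mixed cluster changed direction along its length in QKO, relative to the median gene, but not in LBRKO. In LBRKO all 13 members lay below 0 (-1.32 to -0.07, median -0.62), with 8 called lower and none higher, and in TKO 2 were called higher and 1 lower. Cyp2s1 and Cyp2t4 are its outermost members, with Cyp2f2 next to Cyp2t4, and all 3 were called higher in QKO (Cyp2s1 1.10, Cyp2t4 1.77 and Cyp2f2 0.63), but not on the spike-in scale (-0.12, 0.59 and -0.57). Of the 10 members between them 4 were called lower in QKO (Cyp2b9, Cyp2a4, Cyp2a22 and Cyp2a12, -1.20 to -0.62) and none higher. Over the whole cluster the spike-in scale called 10 of 13 lower and none higher in QKO (median -1.40), and 4 lower in LBRKO. Cyp2t4 read 0.861, 0.864 and 0.865 in WT, 0.779, 0.607 and 0.964 for LBRKO, 1.51, 1.85 and 2.25 for TKO and 3.32, 3.02 and 3.19 for QKO. It shares bins with Egln2, which rose by 2.13. Cyp2a5, which oxidises coumarin and nicotine, read 2.10, 1.43 and 1.13 in WT and 1.11, 1.29 and 1.06 in QKO, overlapping groups with a change of -0.37 ± 0.22 (adjusted p = 0.124). Cyp2b10, a phenobarbital-induced liver enzyme, gave -0.69 ± 0.15 in LBRKO, called, and -0.20 and -0.07 in TKO and QKO, not called. Cyp2g1 of the olfactory mucosa gave -0.62 in LBRKO, called, and -0.02 and -0.24 in the others.

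**Figure D3:**
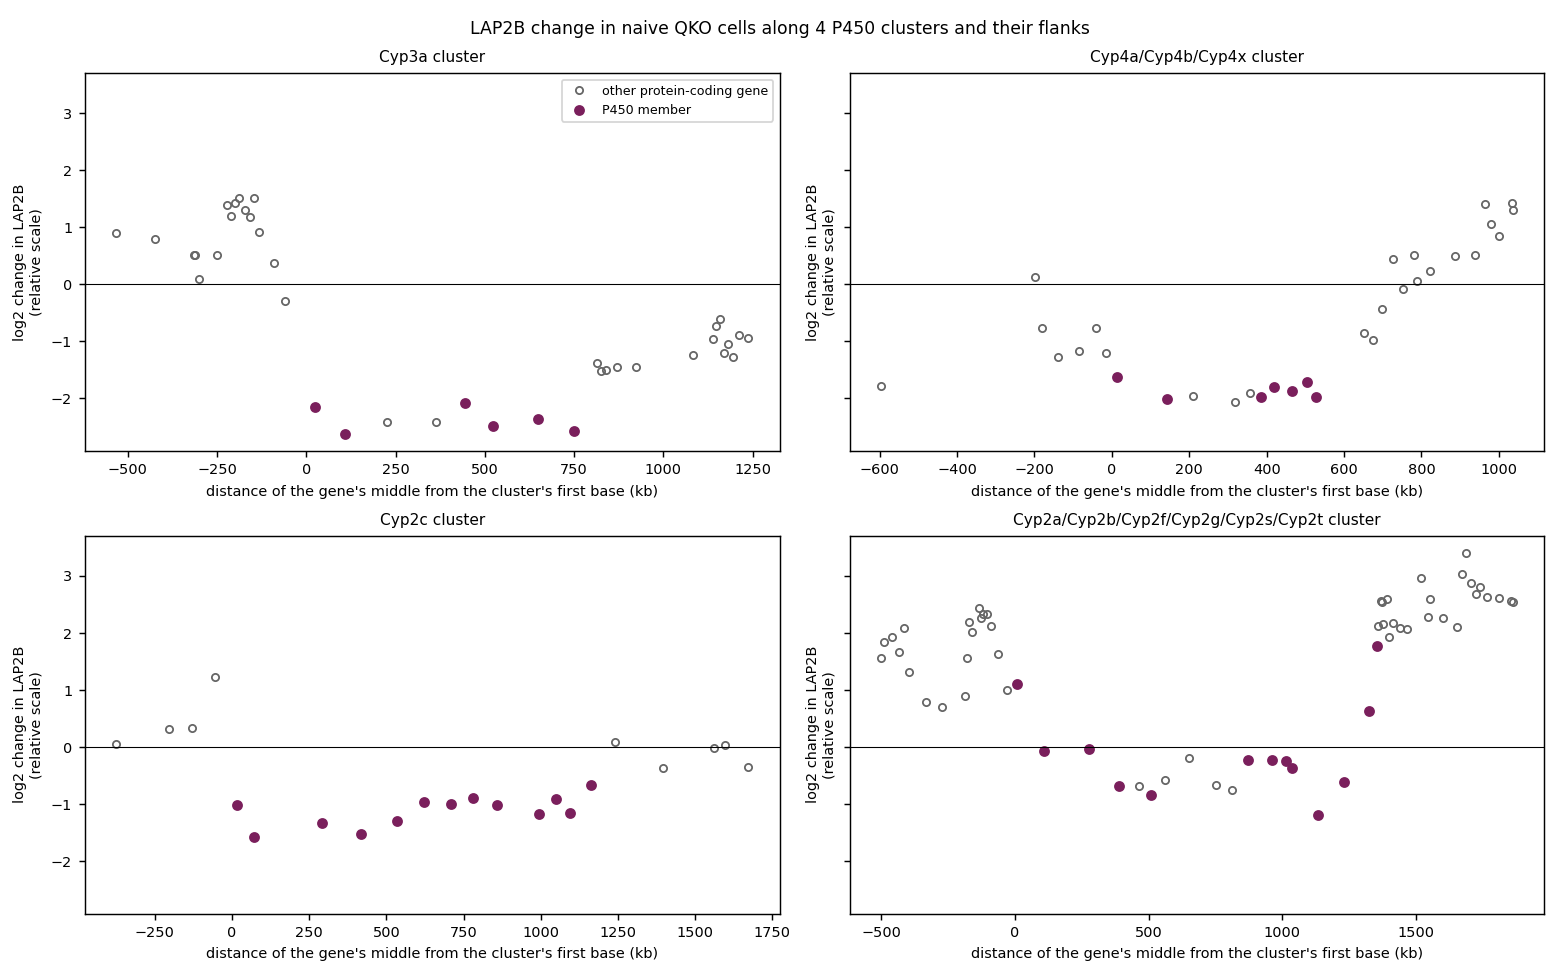
Log2 change of LAP2B in naive QKO against WT (relative scale, vertical axis) for members (filled) and other protein-coding genes (open) by distance in kb of the gene's middle from the first base of the cluster. Flanking genes of the Cyp3a and mixed clusters reach 1.52 and 3.40, while Cyp3a members lie at -2.62 to -2.08. Members of the mixed cluster other than Cyp2s1, Cyp2f2 and Cyp2t4 lie at or below -0.04.

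Genes standing between the members moved with them, and flanks often did not. Cyp3a41b and Cyp3a41a, P450 genes inside the Cyp3a cluster that the naming rule leaves out, changed by -2.42 and -2.41 in naive QKO, and Cyp4a12a, Cyp4a12b and Cyp4a30b inside the Cyp4a/Cyp4b/Cyp4x cluster by -1.96, -2.06 and -1.91. Upstream of Cyp3a57 (-2.16), Zscan25 was at -0.30 (not called), Zfp655 at 0.38 and Zkscan5 at 0.91. On the other side, genes as far as Gpr12 lay at -1.53 to -0.61, all called lower but the last of these, 4930449I24Rik. Vmn1r184, Nlrp9c, Nlrp9a and Vmn1r185, inside the mixed cluster, were lower too, at -0.76 to -0.57, and Nlrp4a was at -0.19 (not called). Hells, next to Cyp2c55 (-1.01), rose by 1.22, and Pdlim1, next to Cyp2c70 (-0.66), was at 0.09 (not called). Counts of neighbours take in protein-coding genes inside a cluster that are not members, as well as its flanks. They are on the relative scale, where 33.3% of all genes were higher and 42.1% lower in naive QKO. Within 500 kb of the mixed cluster 42 of 47 other protein-coding genes were higher and 4 lower in QKO, with a median of 2.13. Those around Cyp4f (26 of 28 higher, median 1.12) and around Cyp2d (30 of 30 higher, median 2.05) rose too, so the Cyp2d members, at a median of 0.46, were below their surroundings. The 3 neighbours of Cyp2j were lower, with a median of -2.11. Median changes over whole chromosomes in naive QKO were between -0.62 (chromosome 3) and 0.30 (chromosomes 4 and 17) over the 8 chromosomes with members. On chromosome 8, which TKO carries in an extra copy, the TKO median was -0.03.

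Single genes called higher in LBRKO than in TKO, without overlap, included Cyp3a13, Cyp2r1 and Cyp2w1, the last given below. Cyp3a13, an intestinal P450 far from its Cyp3a relatives, read 6.92, 6.02 and 6.69 in WT, 11.0, 8.85 and 10.1 for LBRKO, 4.42, 3.95 and 3.49 for TKO and 5.57, 4.94 and 5.15 for QKO. The 4 groups did not overlap, and LBRKO was above TKO by 1.32 ± 0.13 (adjusted p = 9.86e-12). Cyp2r1 read 5.00, 7.70 and 5.25 in WT, 5.22, 3.54 and 4.63 for LBRKO, 2.82, 2.23 and 2.22 for TKO and 1.20, 1.62 and 2.00 for QKO. LBRKO overlapped WT there and stood above TKO by 0.85 ± 0.18 (adjusted p = 1.02e-04). Cyp4v3, a fatty acid hydroxylase of the eye, changed by -0.82, -0.54 and -1.55 in LBRKO, TKO and QKO, all called. Cyp2e1, which oxidises ethanol, changed by -0.87 in TKO and -0.92 in QKO, and its -0.39 in LBRKO was not called (adjusted p = 0.0548).

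Cyp2w1 and Cyp2c23 rose and Cyp2u1 split. Cyp2w1, known from developing and tumour tissue, read 1.14, 0.795 and 1.10 in WT, 2.10, 2.28 and 2.31 for LBRKO, 0.882, 1.27 and 1.40 for TKO and 3.09, 2.58 and 3.44 for QKO. It rose in LBRKO (1.08 ± 0.22) and QKO (1.5 ± 0.22) with no overlap, and TKO overlapped WT. Cyp2c23, a kidney epoxygenase, rose by 0.84 in LBRKO and 1.17 in QKO, and its 0.34 in TKO was not called. Both genes, on the spike-in scale, were called higher in LBRKO (Cyp2w1 1.27, Cyp2c23 1.03) and neither was called in QKO (0.33 and -0.05). Cyp2u1, a fatty acid hydroxylase, rose by 0.66 ± 0.17 in LBRKO and changed by -0.45 ± 0.17 in QKO, where it overlapped WT by library. Cyp4f18, a neutrophil hydroxylase, was called in none of the 3 mutants (-0.21, 0.23 and 0.29), but on the spike-in scale it was lower in QKO (-0.93).

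LBRKO against TKO called 35 members lower and 7 higher in naive cells, against 15.8% and 21.5% of all genes. Those lower were 12 of 13 in the mixed cluster, 8 of 8 in Cyp2j, 7 of 13 in Cyp2c, 4 of 7 in Cyp4a/Cyp4b/Cyp4x, 3 of 9 in Cyp2d, and Cyp4f18. The mixed cluster had a median difference of -0.68, with Cyp2t4 at -1.16, Cyp2a12 at -1.04 and Cyp2a5 at -0.91. Scaling by the mean gene gave 44 lower and 3 higher, and centring each chromosome 23 lower and 11 higher. The spike-in scale turned the direction, with 26 members higher in LBRKO and none lower, against 53.7% and 0.722% of all genes, among them Cyp3a13 (2.11) and Cyp2r1 (1.63). QKO against TKO called 41 lower and 16 higher, against 27.1% and 26.5%, and on the spike-in scale 46 lower and none higher, against 40.4% and 6.23%. QKO against LBRKO called 25 lower and 22 higher, against 31.5% and 21.9%. Members lower than LBRKO included all 6 of Cyp3a (-1.40 to -0.86) and Cyp2r1 (-1.43), and those higher all 8 of Cyp4f (0.41 to 1.09), Cyp2t4 (1.91), Cyp2d34 (1.27) and Cyp2s1 (1.17). The latter split became 39 lower and 9 higher with centred chromosomes and 18 lower and 28 higher with edgeR's TMM scaling. QKO was lower than LBRKO at 57 members and higher at none on the spike-in scale, against 78.1% and 3.06%.

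The naive QKO change went with the LMNB1 level of WT cells, which comes from other libraries. WT LAP2B, which is subtracted in the change, had a similar order to LMNB1, so a negative relation is partly built in. The relation over all genes was not computed. Across the 72 members Pearson's r between the change and the LMNB1 percentile was -0.86 and Spearman's rho -0.88, and in LBRKO and TKO Pearson's r was -0.65 and -0.80. Members of a cluster share a region, base composition and in places bins, so the 72 points are far from independent and no p is given. The 20 members above the 75th LMNB1 percentile had a median change of -2.06 in QKO, -1.21 in LBRKO and -0.95 in TKO. The 22 at or below the 25th had 0.87, -0.06 and 0.34.

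**Figure D4:**
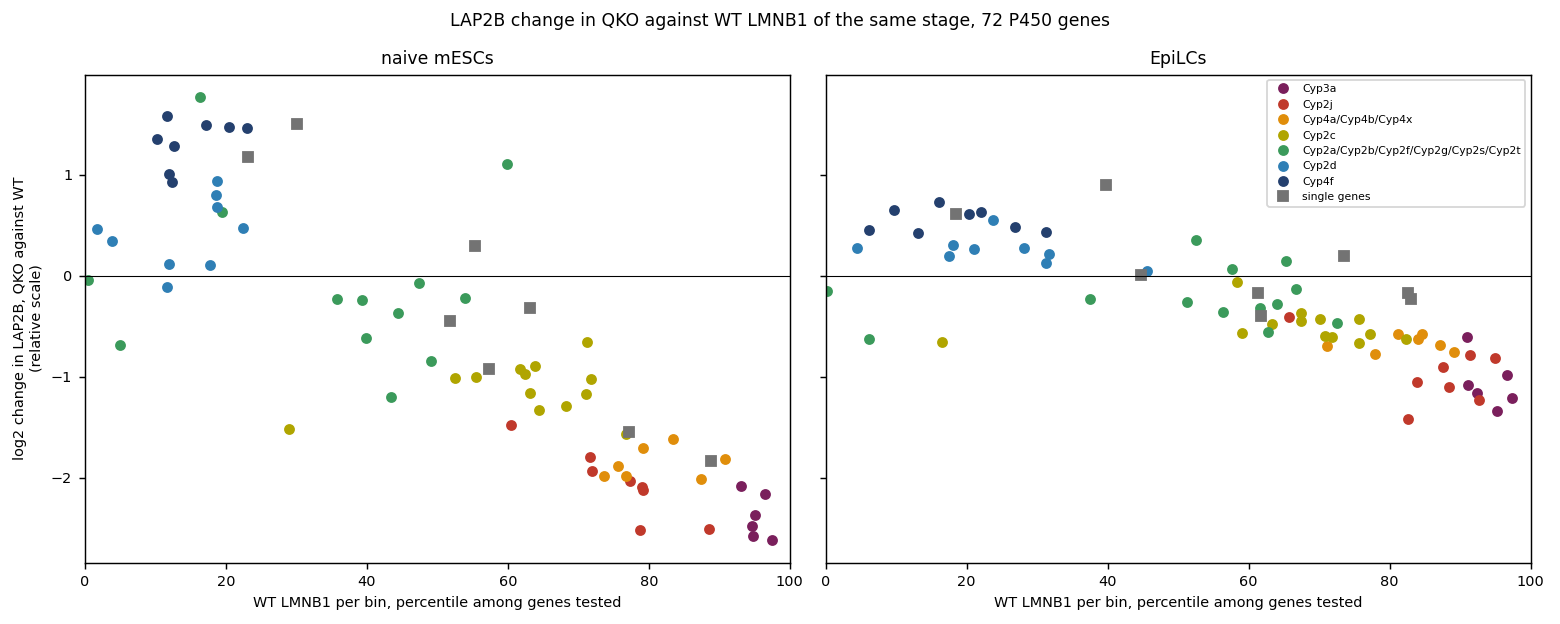
Log2 change of LAP2B in QKO against WT (relative scale, vertical axis) against the WT LMNB1 percentile per bin of the same stage (horizontal axis), 1 point per member, colored by cluster, in naive mESCs (left) and EpiLCs (right). Cyp3a members sit at the lower right and Cyp4f members at the upper left, and the range narrows from -2.62 to 1.77 in naive cells to -1.42 to 0.90 in EpiLCs.

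In EpiLCs most members of the Cyp3a, Cyp2j and Cyp2c clusters were again called lower in each mutant, with smaller medians than in naive cells, and Cyp4f was called higher throughout in QKO only, all relative to the median gene. LBRKO EpiLCs on the spike-in scale had 3 of 6 Cyp3a, 1 of 8 Cyp2j and none of 13 Cyp2c members called lower, TKO 5, 7 and 7, and QKO all of them. LBRKO called 30 members lower and 6 higher, against 10.0% and 13.3% of all genes. TKO called 25 lower and 5 higher, against 9.92% and 8.68%. QKO called 35 lower and 10 higher, against 17.7% and 18.3%. Member medians were -0.40, -0.24 and -0.39, and over all genes 0.01, 0.05 and 0.03. Relative LAP2B in TKO EpiLCs was near relative IGG in WT EpiLCs, with means of 8.69 and 8.36 at Cyp3a57. These were 8.80 and 7.74 at Cyp2c29, and 9.78 and 8.84 at Cyp4f39. Each antibody is in units of its own median gene, so profiles and not levels are compared. Deposited values at Cyp3a57 were 28.2, 18.5 and 14.8 for TKO and 7.11, 16.6 and 6.21 for IGG. The relative mean there was 7.51 in QKO EpiLCs, and 10.6 in naive TKO beside 10.4 for naive IGG. How much of the mutant signal is background was not tested at either stage. The TKO count is the weakest of the 3. It was 11 without WT replicate 1, 18 and 19 when TKO replicate 1 or 2 was left out, and with centred chromosomes or TMM scaling it split into 29 lower and 0 higher or 29 lower and 2 higher. Centring gave 36 lower and 5 higher in QKO.

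Cyp3a had the lowest cluster median in each EpiLC mutant (-0.77 in LBRKO, -0.79 in TKO, -1.12 in QKO), followed by Cyp2j in TKO (-0.52) and QKO (-0.98). In LBRKO the medians of Cyp2j and of the mixed cluster were both -0.53, and 7 of the 13 mixed members were called lower there, against none in TKO and 2 in QKO. This holds relative to the median gene. On the spike-in scale all 13 lay lower in QKO than in LBRKO (-0.74 to -0.13), called at Cyp2b10, Cyp2b9, Cyp2b23 and Cyp2a22. All 6 Cyp3a members were lower in each EpiLC mutant, by -1.34 (Cyp3a59) to -0.61 in QKO. Cyp3a59 read 14.7, 10.4 and 11.1 in WT, 6.42, 4.85 and 6.01 for LBRKO, 5.46, 6.71 and 7.08 for TKO and 4.33, 4.39 and 5.37 for QKO, so that each mutant lay apart from WT while LBRKO and TKO overlapped. Cyp2j9 read 9.27, 7.39 and 8.95 in WT, 6.30, 5.89 and 5.93 for LBRKO, 4.81, 4.73 and 4.29 for TKO and 2.78, 3.45 and 3.16 for QKO. Here LBRKO lay above TKO (0.38, adjusted p = 0.0445), the reverse of its naive order on that scale and not called on the spike-in scale (0.69), and QKO was -1.42 ± 0.14 from WT. The cluster did not share this order. Cyp2j12, Cyp2j7 and Cyp2j6 had a higher mean in LBRKO than in TKO, and Cyp2j13, Cyp2j11, Cyp2j8 and Cyp2j5 a lower one. Cyp2c fell at 9, 9 and 12 of 13 members in LBRKO, TKO and QKO, and Cyp4a/Cyp4b/Cyp4x at 1, 3 and 7 of 7.

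Rises in EpiLCs were fewer. All 8 Cyp4f members were called higher in QKO (0.42 to 0.73), 2 in LBRKO and 3 in TKO, the latter being Cyp4f40 (0.54), Cyp4f16 and Cyp4f39 (0.45). No Cyp4f member was called on the spike-in scale in any EpiLC mutant. Cyp2w1 rose in QKO by 0.90 ± 0.22 and in LBRKO by 0.78 ± 0.22, but on the spike-in scale neither was called (0.09 and 0.83). Its TKO rise of 0.61 (adjusted p = 0.0491) had overlapping libraries. Cyp2r1 rose in LBRKO by 0.88 ± 0.18 (adjusted p = 9.83e-05), with 6.42, 6.63 and 6.60 against 4.37, 3.10 and 3.18 in WT, and Cyp3a13 by 0.66 ± 0.13, of which Cyp2r1 was also called on the spike-in scale (0.92) and Cyp3a13 was not (0.70). The 7 protein-coding neighbours of Cyp2r1 were all called higher there, with a median of 0.90. Cyp2a5 fell in LBRKO from 2.92, 2.24 and 2.62 to 1.02, 1.25 and 1.44 (-1.02 ± 0.22, adjusted p = 2.88e-04).

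Between mutants, fewer members were called in EpiLCs than in naive cells relative to the median gene, but many were lower in QKO on the spike-in scale. On the relative scale QKO against TKO called 2 members lower, Cyp2j8 (-0.56) and Cyp2j9 (-0.55), and none higher, against 0.270% and 0.932% of all genes, with 16 at an unadjusted p under 0.05. Leaving out single libraries left 0 to 2 of these calls, with none left when QKO replicate 1 or 2 or TKO replicate 1 or 3 was dropped, and 1 without TKO replicate 2. The spike-in scale called 41 members lower, all 8 of Cyp2j and all 6 of Cyp3a among them, and none higher, against 28.3% and 0.00142% of all genes. QKO against LBRKO called 11 lower and 5 higher, against 16.4% and 13.8%, led by Cyp2r1 (-1.11), Cyp2j9 (-0.93) and Cyp4a10 (-0.72) below and Cyp2t4 (0.74), Cyp2d22 (0.73) and Cyp2f2 (0.54) above. That split was 8 lower and 16 higher with the mean gene as scale and 23 lower and 1 higher with centred chromosomes, and the spike-in scale gave 53 lower and none higher, against 60.1% and 0.0895%. LBRKO against TKO called 7 lower and 3 higher, against 10.9% and 14.0%, with Cyp2d22 (-0.71) lowest and Cyp2r1 (1.06) highest. It was 17 lower and 2 higher with the mean gene and 4 lower and 7 higher with centred chromosomes. The spike-in scale gave none lower and 2 higher, Cyp2r1 (1.36) and Cyp3a13 (1.11), against 0.305% and 15.2%. The relative count was also 6 without LBRKO replicate 1 and 5 without LBRKO replicate 2 or TKO replicate 2.

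The change of a mutant is taken from WT of the same stage, so its difference between the stages also holds the change of WT. Testing this difference directly, the LBRKO change in EpiLCs minus that in naive cells was positive at 22 members and negative at none, against 10.2% and 9.55% of all genes. These were all 8 of Cyp2j (0.91 to 1.39), 5 of 7 of Cyp4a/Cyp4b/Cyp4x, 5 of 13 of Cyp2c, 2 of 6 of Cyp3a, Cyp2r1 and Cyp4v3. For QKO the effect in EpiLCs minus that in naive cells was positive at 32 members and negative at 10, against 24.8% and 21.0%. The positive ones included all of Cyp2j, Cyp3a and Cyp4a/Cyp4b/Cyp4x, and the negative ones 6 of 8 of Cyp4f. For TKO it was positive at 6 and negative at 2, against 5.77% and 3.81%. The TKO count was 1 without TKO EpiLC replicate 3 or WT EpiLC replicate 3 and 4 or 5 without 6 other libraries (TKO EpiLC replicates 1 and 2, TKO naive replicate 3, WT EpiLC replicate 2 and WT naive replicates 2 and 3). With the mean gene as scale it was 1 positive and 5 negative, and the QKO split with centred chromosomes was 36 positive and 5 negative. On the spike-in scale these tests called no member for LBRKO (15 at an unadjusted p under 0.05, against 0.0938% positive and 0.536% negative of all genes), 1 positive for TKO (against 0.823% and 0.00853%) and 29 positive and none negative for QKO (against 21.9% and 7.73%).

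Between the stages of WT cells, LAP2B was lower in EpiLCs over the Cyp3a and most Cyp4a/Cyp4b/Cyp4x members and higher over some Cyp2d and Cyp4f members, relative to the median gene. In EpiLCs against naive mESCs 14 members were called lower and 9 higher, against 17.0% and 15.1% of all genes, with a member median of -0.07. Those lower were all 6 of Cyp3a (-0.77 to -0.44), 5 of 7 of Cyp4a/Cyp4b/Cyp4x, Cyp2j6, Cyp2r1 (-0.73) and Cyp4v3. Cyp4a10 had the largest fall, from 6.79, 8.84 and 5.69 to 2.75, 3.54 and 3.23 (-1.12 ± 0.17, adjusted p = 1.35e-06). Its LAP2B percentile per bin went from 91.6 to 47.6, its LMNB1 percentile from 90.8 to 87.2 and its IGG percentile from 42.9 to 24.9. For Cyp2r1 these were 84.9 to 55.8, 88.8 to 83.1 and 24.5 to 36.5. Relative LMNB1 means went from 7.98 to 5.53 at Cyp4a10 and from 7.30 to 5.23 at Cyp2r1, neither called. These LAP2B falls are therefore not read as loss of lamina contact, and how far LMNB1 followed them was not tested. Those higher were 4 of Cyp4f (Cyp4f37 at 0.80), 3 of Cyp2d, Cyp2t4 (0.72) and Cyp2a5 (0.74). Cyp2d12 rose most, from 0.361, 0.500 and 0.654 to 0.883, 1.29 and 1.32 (1.07 ± 0.29, adjusted p = 0.00322). The count was 15 without WT EpiLC replicate 3 or WT naive replicate 2. The split was 7 lower and 16 higher with the mean gene and 25 lower and 4 higher with centred chromosomes. The median IGG percentile per bin also went down, from 53.6 to 32.4 in Cyp3a and from 49.5 to 26.8 in Cyp4a/Cyp4b/Cyp4x. In Cyp2d it went from 54.3 to 45.3 and in Cyp4f from 47.3 to 51.3. The part of the background in these LAP2B changes was not tested.

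LMNB1 was called at fewer members, 4 lower and 6 higher, against 7.13% and 6.28% of all genes. Those lower were Cyp3a11 (-0.54), Cyp3a25 (-0.49), Cyp3a44 (-0.43) and Cyp3a13 (-0.46). Those higher were Cyp2d40 (1.20), Cyp2f2 (0.94), Cyp2t4 (0.87), Cyp4f15 (0.71), Cyp4f39 (0.63) and Cyp2d9 (0.56). Cyp3a11 read 19.1, 12.6 and 12.3 in naive cells and 9.56, 10.4 and 9.60 in EpiLCs, and the first naive library is the highest. Cyp2f2, a lung enzyme, read 1.92, 1.25 and 2.05 in naive cells and 3.78, 2.87 and 3.50 in EpiLCs. Its percentile per bin went from 19.5 to 57.7 with LMNB1, from 36.9 to 56.2 with LAP2B and from 42.6 to 66.8 with IGG. The LAP2B change of 0.34 was not called. The count rested on single libraries: it was 1 without EpiLC replicate 1, 2 without EpiLC replicate 3, 6 without naive replicate 1, 5 without naive replicate 3 and 17 without naive replicate 2. No member was called lower without EpiLC replicate 1 or 3 or naive replicate 1, and 1 without naive replicate 3, so the LMNB1 falls of the Cyp3a genes and Cyp3a13 rest on these libraries. With the mean gene as scale all 15 calls were higher, and with TMM scaling 8 of 11. On the spike-in scale 8 were higher and none lower, against 7.96% and 0.251%, and the 6 Cyp3a members lay at -0.25 to -0.02. IGG changed at none of the 72 members by limma, with 9 at an unadjusted p under 0.05, against 0.391% lower and 0.0710% higher of all genes. Recovered reads tested with edgeR called 1 member lower with either scaling, and 3 were called without naive IGG replicate 2.

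**Figure D5:**
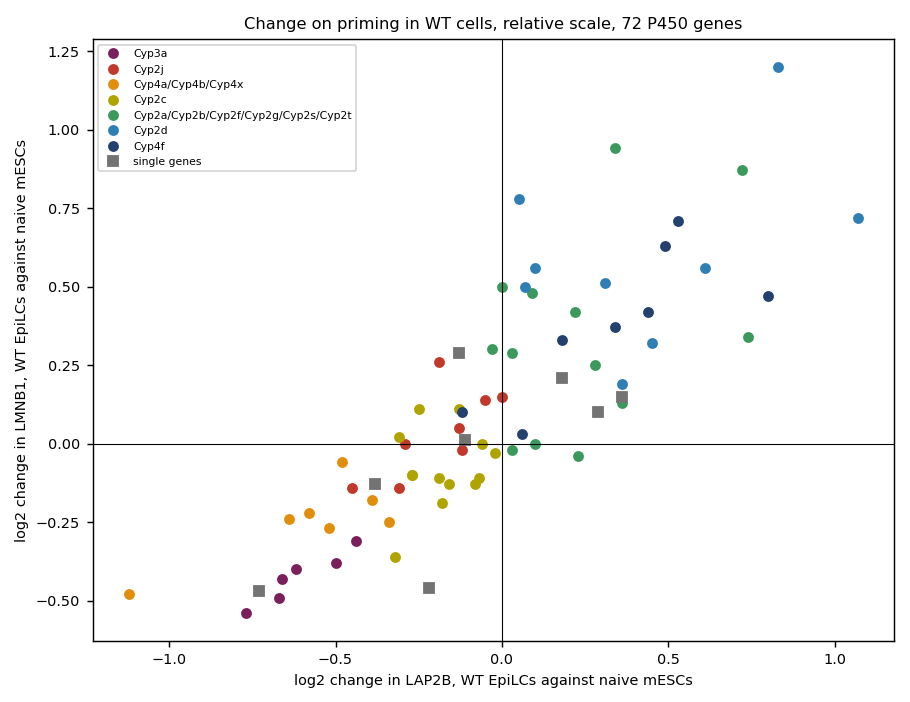
Log2 change of LMNB1 (vertical axis) against that of LAP2B (horizontal axis) in WT EpiLCs against naive mESCs, relative scale, 1 point per member, colored by cluster. Cyp3a members lie at the lower left, with LAP2B changes of -0.77 to -0.44, and Cyp2d40 at the top, with an LMNB1 change of 1.20.

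On the spike-in scale the member medians of TKO and QKO were lower than on the relative scale and their rises were not called. The deposited value is RPKM, which is already divided by the reads of the library, multiplied by the spike-in factor. Whether it keeps differences in total LAP2B was not tested. In naive cells 45 members were lower in TKO and 54 in QKO and none higher, against 47.2% and 65.1% of all genes lower and 2.43% and 10.1% higher. LBRKO had 37 lower and 10 higher, against 17.5% and 28.3%. These splits depend on how the factor enters, since applying it to the recovered reads gave 53 lower and 7 higher in QKO and 22 lower and 14 higher in LBRKO (member median -0.21). Member medians were -0.64 (LBRKO), -1.05 (TKO) and -2.09 (QKO), and those of all genes 0.22, -0.64 and -1.23. Cyp3a16 had deposited values of 34.5, 66.1 and 40.4 in WT, 10.4, 15.3 and 11.8 in TKO and 2.82, 3.26 and 2.97 in QKO. The IGG background of naive WT cells was 6.85, 3.27 and 5.35 there, so QKO LAP2B lay at or below it. At Cyp2j6 QKO gave 1.95, 2.86 and 3.02 beside IGG values of 4.78, 2.25 and 3.79. Such low QKO values are therefore not graded contact above background, and the 2 antibodies were not tested against each other. Cyp4f39 had 9.34, 15.1 and 13.1 in WT and 19.0, 13.0 and 15.7 in QKO, which overlap. In EpiLCs 5 members were lower and 1 higher in LBRKO (against 3.41% and 5.55%), 21 lower and none higher in TKO (against 9.28% and 0.101%) and 55 lower and none higher in QKO (against 55.3% and 0.119%). Applying the factor to recovered reads turned the LBRKO calls mostly higher here and left fewer TKO calls, as given at the end.

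The EpiLC counts for LBRKO and TKO on that scale turned on single libraries. LBRKO calls went from 6 to 3 without LBRKO replicate 1 or 3, to 0 without LBRKO replicate 2, to 1 without WT replicate 1, to 2 without WT replicate 3 and to 15 without WT replicate 2. TKO calls went from 21 to 38 without TKO replicate 1, to 6 without TKO replicate 2 or WT replicate 3, to 3 without TKO replicate 3, to 0 without WT replicate 1 and to 32 without WT replicate 2. Between the stages of WT cells 5 members rose and 1 fell (Cyp4a10, -0.96), against 10.4% and 1.74% of all genes. This count of 6 was 10 without EpiLC replicate 2, 1 without EpiLC replicate 3, 2 without naive replicate 1 and 3 without naive replicate 3.

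Among other genes of the pathway, most further P450 genes and regulators rose in naive QKO on the relative scale. Of 25 further P450 genes, such as the steroid-making Cyp11a1 and the bile acid enzyme Cyp7a1, 16 were higher and 4 lower in naive QKO, with a median of 0.79. They were led by Cyp11a1 (1.86) and Cyp1a1 (1.78), while Cyp7a1 changed by -1.98 in LBRKO. Of 19 regulators and redox partners, such as the P450 reductase gene Por and the nuclear receptors, 13 were higher and 4 lower, with a median of 0.92, led by Nr0b2 (2.93) and Cyb5r3 (2.32). Of 58 tested conjugating enzymes, which act on P450 products, 19 were higher and 30 lower, with a median of -0.37. Gstp1 (2.45) and Gstp2 (2.42) rose most there, and Sult2a7 changed by -2.25 in LBRKO. In QKO EpiLCs the higher and lower counts were 10 and 3, 10 and 2, and 12 and 25 for the 3 lists, against 18.3% and 17.7% of all genes. These are counts beside the background of 33.3% higher and 42.1% lower in naive QKO and were not tested as lists.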

How the data were processed

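CUT&RUN of LAP2B (24 libraries), LMNB1 (6) and IGG (6) was analysed. Per the study's methods and the submitters' processing notes, reads were aligned with Bowtie2 2.3.5.1 to mm39 and to the sacCer3 yeast spike-in, handled with SAMtools 1.10, and turned into coverage with deepTools in 1 kb bins. The deposited gene values are a signal, the authors' RPKM coverage multiplied by a spike-in factor. It is summed over the bins a gene touches and not divided by length. The study's methods name GENCODE M30. Gene ends and bins used here came from GENCODE M39, which gave coordinates for 78131 of the 78202 genes. Where neighbouring bins held equal values they were counted once (81 of 81 such pairs checked, against 782 of 782 unequal pairs summed). Whole reads could be recovered for 100.0% of values within 0.05 of a step, and the recovered reads were tested with edgeR 4.0.16 as an alternative.

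From these, values were divided by the library's median gene (relative scale) or used as deposited (spike-in scale). Genes in the lowest 0.1 by mean were left out, a pseudocount of 0.1 of the median was added, and limma 3.58.1 in R 4.3.3 was fitted to log2 values of all LAP2B libraries together, or of both LMNB1 or IGG groups, with Benjamini-Hochberg adjustment over all 70381 genes tested and calls at 0.05. The scripts were tested on simulated data. Groups came from the labels, and p-values measure only the spread between libraries, which may be technical. Replicate numbers did not pair the samples, since the correlations of their deviations ran from -0.251 to 0.177 and in no comparison did all 3 exceed 0.1. Members, lists and tests were chosen with earlier results of these data known. Genes were named from a list of well-known members, from up to 3 called and non-overlapping rises and falls per comparison, and from the highest and lowest member of each cluster. LBRKO against TKO was added after the values were seen. Alternatives were other scalings, pseudocounts, the filter, edgeR, a replicate block and leaving out each library. Promoters and GC content were read from GRCm39 with GENCODE M39.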

Additional observations from a re-analysis of the deposited data

Results flagged for a closer look

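The change in each mutant was compared between the stages by the limma interaction term (change in EpiLCs minus change in naive mESCs, relative scale, adjusted over all genes), and these well-known members passed. For LBRKO the difference was 1.39 at Cyp2j6, 1.29 at Cyp2r1, 1.23 at Cyp4a10, 1.11 at Cyp2j9, 0.92 at Cyp2c29, 0.88 at Cyp4b1, 0.73 at Cyp2c39, 0.72 at Cyp4x1 and 0.69 at Cyp4v3. The term also holds the change of WT between the stages. From naive cells to EpiLCs the Cyp4a10 mean went from 7.11 to 3.17 in WT and from 2.99 to 3.23 in LBRKO. At Cyp2j6 it went from 14.9 to 10.8 in WT and from 3.73 to 7.22 in LBRKO, and at Cyp2r1 from 5.98 to 3.55 and from 4.46 to 6.55. Cyp2r1 was at -0.41 in naive LBRKO cells, called lower but with libraries that overlap WT and not called on the spike-in scale (-0.23), and at 0.88 in LBRKO EpiLCs, called higher on both scales.

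For TKO it was 1.08 at Cyp2r1, 0.58 at Cyp3a13, 0.54 at Cyp4x1 and -0.98 at Cyp2a5, and the limma adjusted p of Cyp4x1 was 0.0487.

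For QKO it was 1.61 at Cyp2r1, 1.40 at Cyp3a11, 1.38 at Cyp4v3, 1.35 at Cyp4a14, 1.29 at Cyp4b1, 1.28 at Cyp2j6, 1.12 at Cyp4a10, 1.10 at Cyp2j9, 1.04 at Cyp4x1, 0.88 at Cyp2c29 and 0.69 at Cyp2c39. It was -0.97 at Cyp2s1, -0.84 at Cyp4f14 and -0.73 at Cyp2d22, which had risen in naive QKO on the relative scale. On the spike-in scale these 3 were not called (-0.61, -0.48 and -0.40), while the QKO differences above 0 given here were, and no member passed this test for LBRKO and only Cyp2r1 for TKO.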

How the results depend on the processing

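Of the recomputed counts of called members, 300 stayed within 1.5 times the reported count and 58 did not. On the relative scale, QKO against TKO in EpiLCs gave 1 call with centred chromosomes, with the mean gene or with a pseudocount of 0.01, LBRKO against TKO in EpiLCs gave 19 with the mean gene, the TKO interaction gave 4 with TMM scaling, and IGG between the stages gave 1 with edgeR, 1 with TMM and 2 with a pseudocount of 1 median. On the spike-in scale, applying the factor to recovered reads gave 13 calls for LBRKO EpiLCs, 7 for TKO EpiLCs and 11 for the stages of WT LAP2B in place of 6, 21 and 6, and a pseudocount of 1 median gave 10 for LBRKO EpiLCs. With the factor applied to reads the LBRKO EpiLC calls turned from 5 lower and 1 higher to 1 lower and 12 higher. Cyp4f14 in QKO against LBRKO (naive) reversed to -0.19 with centred chromosomes. The member median of LBRKO against TKO in EpiLCs became 0.06 with centred chromosomes, and that of LBRKO EpiLCs on the spike-in scale 0.05 with the factor applied to reads. The cause was not tested.

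Leaving out 1 library at a time gave 11 to 26 calls for TKO EpiLCs, 0 to 2 for QKO against TKO and 5 to 9 for LBRKO against TKO in EpiLCs, 15 to 29 for the stages of LAP2B, 1 to 17 for LMNB1, 0 to 3 for IGG and 1 to 10 for the TKO interaction. On the spike-in scale it gave 0 to 15 for LBRKO EpiLCs, 0 to 38 for TKO EpiLCs and 1 to 10 for the stages. The replicate block, whose numbers did not pair the samples, gave 6 calls for LMNB1 in place of 10, and moved no other count by over 1.5 times. Of 201 calls of named genes, 61 were lost under some alternative. Depth limits the low members, and 3 libraries per group from 1 line each limit all.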
